A study of Mus musculus with 2 samples.

Results

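The capillary endothelial class held 448 of the 2843 barcodes kept from 2 single-cell libraries of adult mouse brain cells sorted as astrocytes and endothelial cells. Its members were chosen by measured values. A kept barcode had at least 1000 UMIs (unique molecular identifiers, which count captured transcripts), at least 500 genes and at most 15% mitochondrial UMIs. The endothelial genes Cldn5, Flt1, Abcb1a, Slco1a4, Cdh5 and Pecam1 together made up at least 0.5% of its UMIs, Ttr less than 2%, haemoglobin less than 5% and ribosomal protein genes less than 1.5%. It held at most 1 UMI of the arterial genes Gkn3, Bmx, Sema3g, Vegfc and Fbln5, and at most 1 of the venous genes Slc38a5, Vwf, Adgrg6 and Nr2f2. Among endothelial cells the class is therefore defined by what its cells lacked, and values of these 15 genes are given below only as descriptions. One library came from IL34LacZ/+ mice, heterozygous for a LacZ allele of the interleukin-34 gene and called WT by the submitters. The other came from IL34LacZ/LacZ mice, homozygous for it and called KO, so both libraries carry the LacZ allele. The sources used here do not give the number of mice, the sort markers or the position of LacZ in the gene.

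Brain capillary endothelial cells form the blood-brain barrier: tight junctions seal them to each other, vesicle traffic across them is kept low, and nutrients cross on dedicated carriers. Along the vessel tree these cells grade from arterial through capillary to venous identity, and Wnt/beta-catenin signalling from the surrounding tissue maintains their barrier genes. Fenestrated capillaries, as in the choroid plexus and the circumventricular organs, lack this barrier and make the diaphragm protein Plvap.

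The library labelled IL34LacZ/+ gave 282 capillary cells with 1210187 UMIs in all, and the library labelled IL34LacZ/LacZ gave 166 with 740566. They were 64.4% (95% exact binomial interval 59.7 to 68.9) and 60.8% (54.7 to 66.6) of the 438 and 273 endothelial cells under the ribosomal limit. The rest of those were 36 and 18 arterial cells (2 or more arterial UMIs), 90 and 70 venous cells (2 or more venous UMIs) and 30 and 19 with both. Median depth was 3596.5 and 3570.5 UMIs per capillary cell, against 4950 and 4742 in arterial and 5549 and 6641 in venous cells. Since a limit of 1 UMI is easier to meet in a shallow cell, depth moves with these shares, and its part in them was not tested. Of the members, 175 and 115 held no arterial and no venous UMI; just outside the limit lay 13 and 7 cells with 2 arterial UMIs and 34 and 23 with 2 venous UMIs. Of the members, 273 and 156 held the endothelial genes at 1% of UMIs or more, and requiring that changed several results given below. The libraries share 8 barcodes, none of them among capillary cells. With 1 library per genotype there is no replicate, no difference between genotypes can be tested, and library and genotype cannot be told apart. Levels below are UMIs of a gene divided by all UMIs of the class and scaled to 1000000 (CPM), with the value of the library labelled IL34LacZ/+ first. Intervals are exact 95% Poisson or binomial intervals and cover counting error only.

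The upstream sequence of the class's named markers is shown because these genes carry the label. Mfsd2a, a lipid transporter that restrains vesicle traffic, Tfrc, the transferrin receptor, Slc7a5, which carries large neutral amino acids, Slc16a1, which carries lactate and ketone bodies, and the tight junction protein Cldn5 are the 5 markers; Cldn5 was also used in the rule. The RefSeq promoter windows of GRCm38.p6 held 4 of the 5 (no entry for Slc7a5). The 150 bases before the start site are given 5′ to 3′ on the gene's strand, at chr4:122961189-122961338 (minus strand) for Mfsd2a, chr16:32608746-32608895 (plus) for Tfrc, chr3:104638514-104638663 (plus) for Slc16a1 and chr16:18776697-18776846 (plus) for Cldn5. Capitals mark CTTTGA, the core letters read by TCF and LEF factors at the end of the Wnt pathway, and CCAAT, a common promoter box, on either strand (TCAAAG and ATTGG).
Mfsd2a: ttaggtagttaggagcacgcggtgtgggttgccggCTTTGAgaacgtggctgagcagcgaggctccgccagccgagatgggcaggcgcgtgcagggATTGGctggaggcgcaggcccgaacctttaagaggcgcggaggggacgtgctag
Tfrc: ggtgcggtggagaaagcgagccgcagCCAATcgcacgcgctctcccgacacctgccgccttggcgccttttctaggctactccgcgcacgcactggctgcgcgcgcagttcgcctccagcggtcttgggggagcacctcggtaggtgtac
Slc16a1: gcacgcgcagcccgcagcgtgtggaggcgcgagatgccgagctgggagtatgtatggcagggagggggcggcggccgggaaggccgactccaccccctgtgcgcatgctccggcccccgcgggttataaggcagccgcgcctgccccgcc
Cldn5: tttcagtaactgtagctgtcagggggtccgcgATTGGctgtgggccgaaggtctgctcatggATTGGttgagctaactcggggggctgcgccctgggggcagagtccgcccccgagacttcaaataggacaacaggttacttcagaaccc
The Mfsd2a window alone of these 4 held CTTTGA or TCAAAG, once, and 7.93% of all 32851 windows of this length did. Windows of Mfsd2a, Tfrc and Cldn5 held a CCAAT box (2 in Cldn5), as did 24.5% of all windows. Tfrc has 2 start sites in the table; the upstream window is shown, and the window of the other start site held neither set of letters and had a GC content of 69.3%. Slc16a1 held neither set of letters and had the highest GC content, 74.7%, against 65.3% for Mfsd2a, 68.0% for Tfrc, 58.7% for Cldn5 and a median of 54% over all windows.

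Of the 4 markers outside the rule, Slc16a1 alone was higher in capillary than in arterial cells of both libraries, and none of the 4 was called against venous cells. A gene was called here when it was past 1.5-fold with an interval that leaves out 1, in both libraries for zones. Slc16a1 reached 447 CPM (95% interval 410 to 486) and 358 CPM (316 to 404) in capillary cells, 104 and 80.0 CPM in arterial cells, and 382 and 272 CPM in venous cells. Capillary cells were thus 4.31 and 4.47 times the arterial level, with intervals that do not meet, while capillary and venous intervals met in both. Tfrc stood at 1200 and 836 CPM in capillary, 467 and 710 CPM in arterial and 1138 and 881 CPM in venous cells. Its arterial difference was wide in the library labelled IL34LacZ/+ only. Slc7a5 was at 777 and 677 CPM in capillary, 384 and 570 CPM in arterial and 741 and 501 CPM in venous cells, the same pattern. Mfsd2a was at 263 and 190 CPM in capillary, 244 and 190 CPM in arterial and 212 and 153 CPM in venous cells, with capillary intervals that met those of venous cells in both libraries. In other cell classes, Tfrc was at 70.4 and 62.7 CPM in reference astrocyte barcodes and 55.3 and 50.2 CPM in oligodendrocyte barcodes. Mfsd2a was at 120 and 91.1 CPM in the astrocyte barcodes. Slc16a1 was at 88.7 and 84.1 CPM in the oligodendrocyte barcodes, near its arterial level. By these markers the class holds barrier endothelium, but they were not particular to it among endothelial cells and did not separate it from venous cells. Summed over the 5 markers, with Cldn5 of the rule among them, capillary cells held 4482 and 3622 CPM and venous cells 4425 and 3259 CPM. The ribosomal-rich endothelial cells, which the rule leaves out, held more, at 6249 and 4341 CPM.

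**Figure D1:**
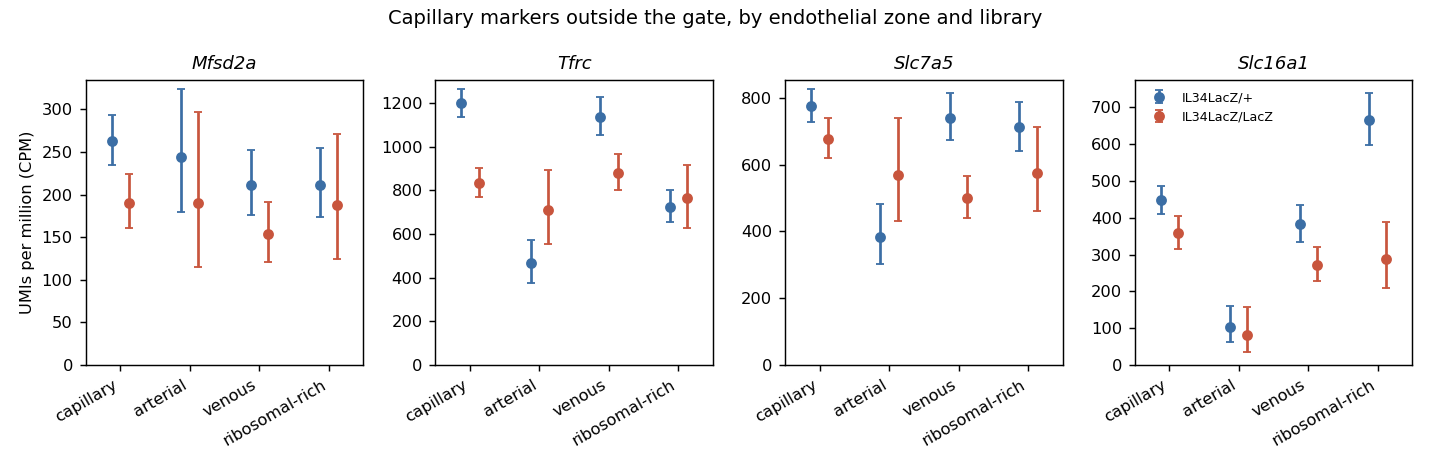
Level in CPM (vertical axis, from 0) of Mfsd2a, Tfrc, Slc7a5 and Slc16a1 in capillary, arterial, venous and ribosomal-rich endothelial cells, points for the library labelled IL34LacZ/+ (blue) and the library labelled IL34LacZ/LacZ (red), bars for 95% Poisson intervals of counting error. Slc16a1 is low in arterial cells of both libraries (104 and 80.0 CPM), and capillary and venous intervals meet except for Slc7a5 in the library labelled IL34LacZ/LacZ.

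A few members lacked barrier transcripts. Of the capillary cells, 6 (2.13%) and 5 (3.01%) held Plvap, which they held at 1285 and 731 CPM, while the other 276 and 161 cells had no Plvap UMI at all. These 11 cells had no UMI of Mfsd2a, Tfrc, Slc7a5 or Slc16a1. They had no UMI of Lef1, the Wnt effector, which stood at 2269 and 2138 CPM in the remaining cells; 0 UMIs of 23343 and 32829 in the Plvap cells allow up to 129 and 91.4 CPM. Slco1c1, the thyroid hormone carrier, was at 42.8 CPM (1 UMI) and 0 in Plvap cells against 3244 and 3113 CPM in the rest. Cldn5 was at 0 and 30.5 CPM (1 UMI) against 1831 and 1632 CPM, and the glucose carrier Slc2a1 at 0 and 30.5 CPM against 688 and 715 CPM. Spock2, an extracellular matrix proteoglycan, was at 0 and 60.9 CPM against 2885 and 2268 CPM. In both libraries, the barrier genes listed here were at or near 0 in Plvap cells.

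The same cells held general endothelial genes and other genes of the fenestrated list. Flt1, a VEGF receptor, was at 7840 and 6549 CPM in Plvap cells and 9064 and 7897 CPM in the rest, and it let these cells meet the endothelial limit. Kdr, the main VEGF receptor, was at 2742 (2111 to 3501) and 1127 (794 to 1553) CPM against 540 and 473 CPM, higher in both libraries with intervals that do not meet. Cdh5, the cadherin of endothelial junctions, was at 386 and 396 CPM against 281 and 315 CPM. Exoc3l2 was at 728 and 731 CPM against 1.69 and 0, Esm1, a proteoglycan of VEGF-exposed endothelium, at 428 and 244 CPM against 0 and 0, and Plpp3, a lipid phosphatase, at 5055 and 2406 CPM against 62.4 and 39.6 CPM. Cd24a, a surface glycoprotein, was at 257 and 183 CPM against 0.843 and 2.83 CPM. Ramp3, which modifies the adrenomedullin receptor, was at 85.7 CPM (2 UMIs) and 274 CPM (9 UMIs) against 4.21 and 4.24 CPM, and 71.4% and 25% of its UMIs lay in cells without Plvap. The efflux pump Abcg2 did not follow the barrier genes: it was at 643 and 853 CPM in Plvap cells and 977 and 988 CPM in the rest. Abcb1a, the other main efflux pump, did, at 85.7 and 122 CPM against 1688 and 1608 CPM. The cells were not shallow, with median depths of 3524 and 6807 UMIs, and they held no UMI of the astrocyte gene Slc1a2. Gja1, a connexin on the astrocyte list, was at 300 and 183 CPM (7 and 6 UMIs) against 85.1 and 31.1 CPM. Plvap was at 0 and 7.76 CPM in venous cells, without a UMI in the few arterial cells, and at 116 and 121 CPM in the ribosomal-rich endothelial cells that the rule leaves out. These cells were looked for after the values were seen, and Plvap chose them, so the contrast is a description.

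**Figure D2:**
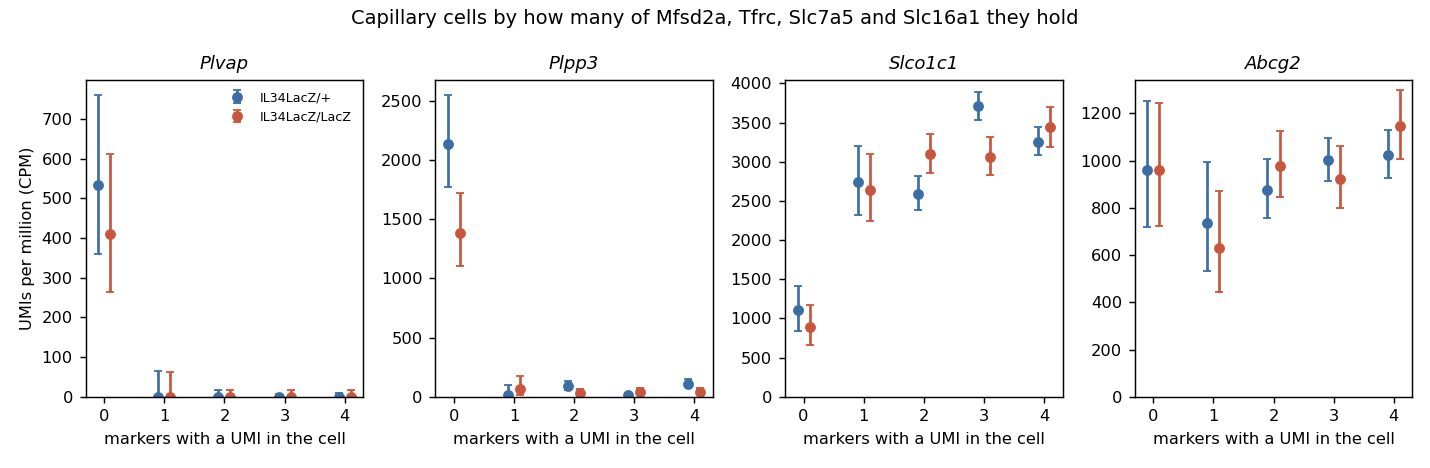
Level in CPM (vertical axes, from 0) of Plvap, Plpp3, Slco1c1 and Abcg2 in capillary cells grouped by how many of Mfsd2a, Tfrc, Slc7a5 and Slc16a1 have a UMI in the cell (horizontal axis, 0 to 4), blue for the library labelled IL34LacZ/+ and red for IL34LacZ/LacZ, with 95% Poisson intervals of counting error. All Plvap lies in cells with 0 markers (533 and 411 CPM over 18 and 16 cells), where Slco1c1 is lowest (1102 and 890 CPM) and Abcg2 is not.

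Another 4 cells in the library labelled IL34LacZ/+ and 3 in the other reached 3 UMIs of the fenestrated list without Plvap. The 4 held 70.6% of the class's Slc1a2 UMIs in that library and 35.2% of its Apoe UMIs, both of which are astrocyte transcripts, and their median depth was 12501 UMIs. Plpp3 is itself abundant in astrocytes, at 2347 and 2410 CPM in the reference barcodes. Without the 10 and 8 cells with 3 or more UMIs of the list, Plpp3 was at 22.8 and 25.9 CPM in the class. Over the whole class Plpp3 was called higher than in arterial cells (159 and 144 against 57.1 and 30.01 CPM), which rests on these cells.

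Against arterial cells, 64 of 3927 measured genes were higher in capillary cells of both libraries (1.63%) and 63 lower (1.6%), 3.23% in either direction. Arterial genes that the rule did not use were mostly lower: 6 of 7 measured list members were called, Mecom being the exception. Efnb2, the arterial ephrin, was at 62.8 and 70.2 CPM in capillary cells and 213 and 190 CPM in arterial cells. Alpl, the alkaline phosphatase of arteriolar and capillary endothelium, was at 66.9 and 82.4 CPM against 301 and 190 CPM, and Unc5b, a netrin receptor, at 100 and 74.3 CPM against 332 and 210 CPM. Glul, glutamine synthetase, was at 202 and 261 CPM against 586 and 660 CPM. The Notch ligand Jag1 was at 51.2 and 71.6 CPM against 156 and 190 CPM, and Tgfb2, a TGF-beta ligand, at 335 and 240 CPM against 566 and 500 CPM. Capillary and arterial intervals were apart in both libraries for these 6 genes by the call rule. Mecom, a transcription factor of arterial identity, was at 3376 and 2844 CPM in capillary and 4344 and 3171 CPM in arterial cells.

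Against venous cells, 34 of 4840 measured genes were higher in capillary cells (0.702%) and 44 lower (0.909%), 1.61% in either direction. Of 11 measured venous list members outside the rule, 6 were lower, among them Vcam1, Il1r1, Tmsb10, Ctsc and Nrp2. Il1r1, the interleukin-1 receptor, was at 23.1 and 81.0 CPM in capillary cells and 203 and 691 CPM in venous cells, a ratio of 0.114 and 0.117. Ctsc, a lysosomal protease, was at 52.9 and 37.8 CPM against 99.0 and 126 CPM. Vcam1, which binds leukocytes, was at 5.78 and 6.75 CPM (7 and 5 UMIs) against 30.7 and 342 CPM, and Icam1, another leukocyte ligand, at 17.4 and 14.9 CPM against 32.4 and 186 CPM without passing in both libraries. The venous Vcam1 and Il1r1 levels differed widely between the libraries, as did those of Icam1. The 342 CPM of Vcam1 rested on few cells of the library labelled IL34LacZ/LacZ, where 17.1% of the 70 venous cells held it. With those cells thinned to equal depth, 5 held Vcam1, and a venous cell held 0.271 UMIs on average and 13 at most. The part of single venous cells in the Vcam1 call was not tested. Alpl and Unc5b, lower than in arterial cells, were higher than in venous cells, where Alpl was at 32.4 and 29.1 CPM and Unc5b at 66.5 and 38.8 CPM. Nrp2, the neuropilin of veins and lymphatics, was the mirror image: it was at 71.9 and 115 CPM in capillary cells, 176 and 281 CPM in venous cells and 0 and 40.0 CPM in arterial cells. These 3 genes were picked for their intermediate level, and 7 genes named below lay above or below both zones.

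**Figure D3:**
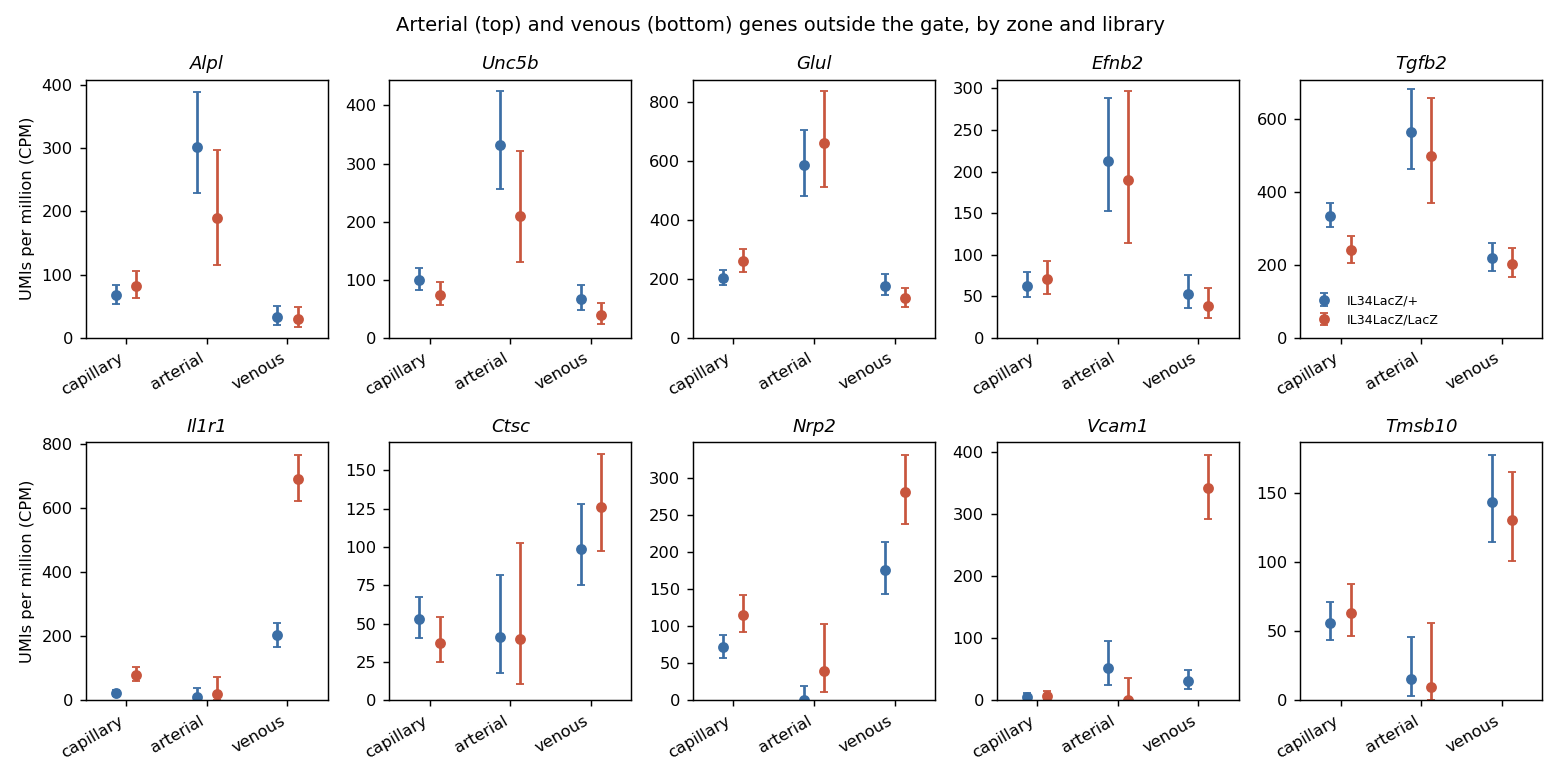
Level in CPM (vertical axes, from 0) of 5 arterial (top) and 5 venous (bottom) genes that the rule did not use, in capillary, arterial and venous cells, blue for the library labelled IL34LacZ/+ and red for IL34LacZ/LacZ, bars for 95% Poisson intervals of counting error. Capillary cells sit below arterial cells for the top genes (Glul 202 and 261 against 586 and 660 CPM) and below venous cells for the bottom genes (Il1r1 23.1 and 81.0 against 203 and 691 CPM).

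Over all measured genes 1.63% were higher in capillary than in arterial cells. Of 22 measured carriers 3 were higher and none lower: Slc16a1, the thiamine carrier Slc19a3 (202 and 151 against 72.7 and 60.02 CPM) and the organic anion carrier Slco2b1 (372 and 315 against 130 and 170 CPM). Of 15 other capillary-leaning genes, Car4, a carbonic anhydrase of capillary walls, was higher, at 500 and 410 CPM against 98.6 and 230 CPM. Among 23 measured Wnt genes the feedback inhibitors Apcdd1 (662 and 514 against 420 and 300 CPM) and Nkd1 (303 and 232 against 130 and 110 CPM) were higher. Sox17, a transcription factor of arterial fate, was lower, at 184 and 204 CPM against 384 and 320 CPM. None of 12 junction genes and none of 5 ABC transporters measured there was called in either direction.

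Of 17 measured VEGF, angiopoietin and Notch genes 2 were higher than in arterial cells and 4 lower, and of 16 BMP and TGF-beta genes 2 were higher and 1 lower. Over all measured genes 1.63% were higher and 1.6% lower. Jag1 and Unc5b among the 4, and Tgfb2 as the 1, were already counted with the arterial genes above. Nrp1, the co-receptor of VEGF and semaphorins, was at 1065 and 1011 CPM in capillary and 555 and 580 CPM in arterial cells. Lrp8, an apolipoprotein E and reelin receptor, was at 359 and 297 CPM against 223 and 150 CPM. Smad3, which carries TGF-beta signals, was at 100 and 104 CPM against 36.3 and 30.01 CPM, and the co-receptor Tgfbr3 at 360 and 324 CPM against 197 and 160 CPM. All 4 were called higher. Notch4 (67.8 and 70.2 against 145 and 150 CPM), the Notch ligand Jag2 (136 and 136 against 275 and 240 CPM) and the caveolar coat gene Cavin2 (107 and 119 against 176 and 260 CPM) were called lower. Klf6, a flow-responsive transcription factor, was lower than in both other zones, at 75.2 and 83.7 CPM against 197 and 230 CPM in arterial and 123 and 136 CPM in venous cells.

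Among genes outside the lists, Unc13c, of a family that primes vesicle release, had the highest capillary-over-arterial ratio, at 333 and 435 CPM against 41.5 and 30.01 CPM. It was no higher than in venous cells, which held 442 and 444 CPM. Fam13a was at 85.9 and 162 CPM against 0 and 30.01 CPM, at least 5.52-fold higher in the library labelled IL34LacZ/+ when the 0 is set to a floor of 3 UMIs. The phosphatidylinositol transfer protein Pitpnm2 (96.7 and 99.9 against 15.6 and 30.01 CPM), Auts2 (358 and 304 against 109 and 50.0 CPM) and Ttyh2 (301 and 216 against 109 and 70.0 CPM) followed, and none of them was called against venous cells. Gab3 and Tnfrsf11a, the receptor for RANK ligand, had ratios of 4.46 and 6.21, and 3.61 and 7.42, from 56 and 46, and 68 and 55 UMIs. On the low side, Cp, which oxidises iron for export, was at 201 and 116 CPM against 820 and 260 CPM, Kank4 at 85.1 and 48.6 CPM against 275 and 140 CPM, and Rad54b at 69.4 and 78.3 CPM against 151 and 150 CPM. Rad54b was higher than in venous cells, where it was at 39.2 and 25.2 CPM. Gvin2, Ssbp2, Myl12b, Gpi1 and Tpd52l1 had ratios of 0.301 to 0.555 and did not pass in both libraries.

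Over venous cells the highest ratios were those of Mlec, a glycan-binding protein of the endoplasmic reticulum (47.1 and 47.3 against 13.7 and 21.4 CPM), and Runx1t1, a transcriptional co-repressor (122 and 112 against 56.3 and 17.5 CPM). Ivns1abp, the only capillary-leaning gene called over venous cells, was at 435 and 388 CPM against 212 and 186 CPM. Zfp771, Apold1, Smc3, Gmcl1 and Mark4 were called higher at 40.5 to 110 CPM in capillary cells. The lowest ratios outside the venous list were those of Frem2 (25.6 and 21.6 against 70.0 and 56.3 CPM) and Pla2g4a, a phospholipase that releases arachidonic acid. Pla2g4a was at 57.8 and 86.4 CPM in capillary, 260 and 390 CPM in arterial and 113 and 322 CPM in venous cells, so capillary cells held the lowest level of the 3 zones in both libraries. Osbpl10 and Gbp2, an interferon-inducible GTPase, were also lower than in venous cells. Of the genes higher than in arterial cells, 5 (7.81%, and 14.7% of those higher than in venous cells) were higher than in both zones: Hecw2, Lsamp, Nav3, Ntm and Plpp1. Over all measured genes 1.63% were higher than in arterial and 0.702% higher than in venous cells. Both ratios use the same capillary sums, so the overlap is a description. Klf6 and Pla2g4a were the 2 genes lower than in both. The 5 and 2 were named after their values were seen. Lsamp and Ntm are best known as neuronal adhesion molecules, and 2 of 4 measured neuronal markers were also called higher than in arterial cells. In each library 1 capillary cell held 49.6% and 41.5% of the neuronal marker UMIs, and the part of such cells in these calls was not tested.

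Inside the class, Slc16a1 was lower in cells with 1 arterial UMI than in cells with none or with 1 venous UMI. It was at 90.5 and 70.5 CPM in the 20 and 12 cells with 1 arterial UMI, 447 and 277 CPM in the 175 and 115 cells with none, and 538 and 659 CPM in the 81 and 36 cells with 1 venous UMI. The levels rose in that order in both libraries, and the first interval met no other. The intervals of cells with none and with 1 venous UMI met in the library labelled IL34LacZ/+ (398 to 501 and 469 to 613 CPM). In the other library 1 cell held 39 of the 129 UMIs behind the 659 CPM. The 6 and 3 cells with 1 UMI of each kind were at 255 and 0 CPM (13 and 0 UMIs), with intervals that met those of the cells with 1 arterial UMI. Slc7a5 followed the same order, at 582 and 546 CPM, 735 and 681 CPM, and 924 and 736 CPM, with intervals that mostly met. Tgfb2 ran the other way in the library labelled IL34LacZ/+ (530, 358 and 285 CPM) and not clearly in the other (299, 225 and 266 CPM). Mfsd2a gave no common order, at 375 and 211 CPM, 250 and 216 CPM, and 277 and 133 CPM, nor did Tfrc, at 1022 and 969 CPM, 1194 and 801 CPM, and 1326 and 915 CPM. Efnb2 and Mecom of the arterial list and Il1r1, Nrp2 and Flrt2 of the venous list gave no common order either. Efnb2 was at 77.6, 47.7 and 80.3 CPM in the library labelled IL34LacZ/+ and 123, 73.6 and 25.6 CPM in the other. Nrp2 was at 77.6, 68.6 and 77.8 CPM, and 70.5, 139 and 76.7 CPM. The groups were set by the rule's own genes, so these values are a description.

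**Figure D4:**
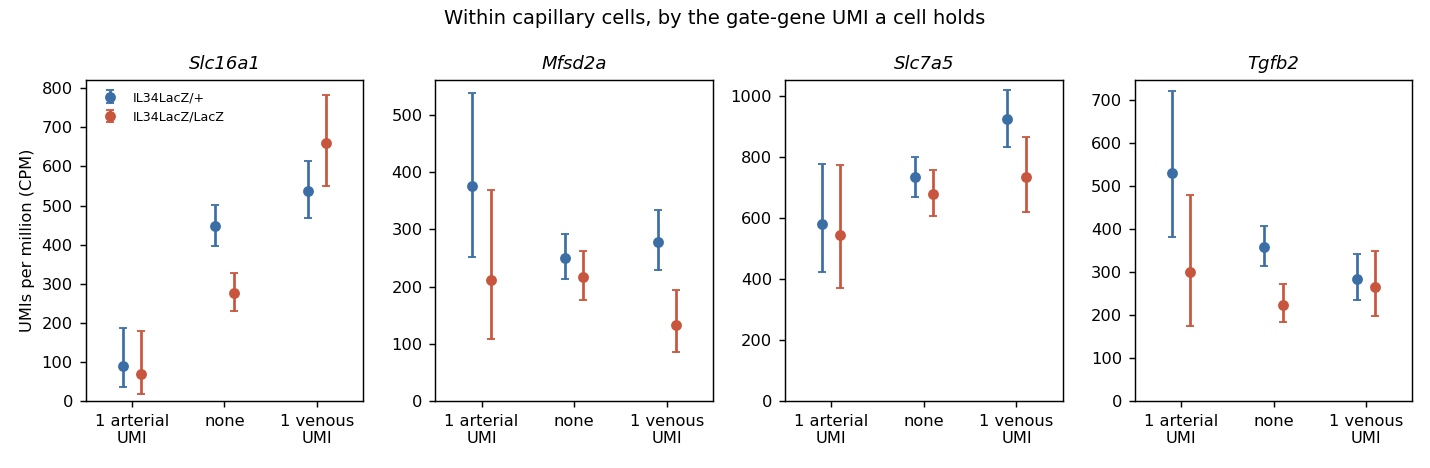
Level in CPM (vertical axes, from 0) of Slc16a1, Mfsd2a, Slc7a5 and Tgfb2 in capillary cells with 1 arterial UMI, none, or 1 venous UMI of the rule's genes (horizontal axis), blue for the library labelled IL34LacZ/+ and red for IL34LacZ/LacZ, with 95% Poisson intervals of counting error. Slc16a1 climbs from 90.5 and 70.5 CPM to 538 and 659 CPM from left to right, and 1 cell held 39 of the 129 UMIs behind the 659 CPM.

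Cell by cell, most members carried several markers. With every cell thinned to 1000 UMIs, a depth that no member fell short of, Tfrc was found in 60.6% of capillary cells (54.7 to 66.4) and 51.8% (43.9 to 59.6), and unthinned in 81.6% and 74.1%. Slc7a5 was found in 53.2% and 45.8% thinned, Slc16a1 in 25.9% and 17.5%, and Mfsd2a in 24.1% and 20.5%, with intervals of the 2 libraries that meet in each case. In reference astrocyte barcodes, with median depths of 8552 and 9407.5 UMIs, thinned shares were 6.53% and 7.32% for Tfrc, 2.01% and 1.22% for Slc7a5 and 5.03% and 4.88% for Slc16a1. Mfsd2a was found in 9.05% (5.45 to 13.9) and 12.2% (6.01 to 21.3) of them, and the latter interval meets that of capillary cells (14.6 to 27.4). Tfrc and Slc7a5 were well above that background in both libraries. At full depth, 64 (22.7%) and 35 (21.1%) capillary cells held all 4 markers, and 18 (6.38%) and 16 (9.64%) held none. The latter include the 11 Plvap cells, and the median depth of cells with none, 2427.5 and 2730.5 UMIs, was below the 5215 and 4934 of cells with all 4.

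Between the libraries, 100 of 3591 measured genes were higher in capillary cells of the library labelled IL34LacZ/LacZ (2.78%) and 142 lower (3.95%), together 6.74%, called past 1.5-fold with an interval that leaves out 1. The median log2 ratio of all measured genes was 0.02, and 93.1% lay within 1.5-fold. Of the lower genes, 40 were over 10 times more abundant in oligodendrocyte, choroid plexus, astrocyte or pericyte barcodes than in capillary cells. Of the higher genes 1 was. In 51 of the lower and 8 of the higher genes 1 cell held over 25% of a library's UMIs. The part of RNA from other cell types and of single cells in these calls was not tested. Genes of the rule were kept in the list counts and medians that follow. They are Cldn5 (capillary markers and junctions), Cdh5 and Pecam1 (junctions), Abcb1a (ABC transporters), Slco1a4 (carriers) and Flt1 (VEGF, angiopoietin and Notch). Since their summed share chose the cells, their values are a description.

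The 5 capillary markers all had ratios below 0 and none was called, with a median log2 ratio of -0.32. Their summed level was lower in the library labelled IL34LacZ/LacZ in capillary cells (4482 and 3622 CPM) and in the other zones too. In venous cells it was 4425 and 3259 CPM, in ribosomal-rich cells 6249 and 4341 CPM and in arterial cells 2990 and 2841 CPM. The venous list outside the rule lay the other way, with 4 of 5 measured genes above 0, 2 called higher (Flrt2 and Nrp2) and a median of 0.36. Flrt2 rested on few cells, as given below. The arterial list had none of 7 called and a median of 0.16. Over the alternatives the venous median ran from -0.07 to 0.72 and the arterial median from -0.54 to 0.33, so neither kept its sign. The median of the capillary markers stayed between -0.48 and -0.21. The part of a shift along the vessel tree in these values was not tested. Of the capillary markers Tfrc had the lowest ratio, at -0.52 (-0.66 to -0.38), and stayed between -0.64 and -0.28 under every alternative tried. Mfsd2a stood at -0.46 (-0.76 to -0.17), Slc16a1 at -0.32 (-0.54 to -0.11), and Slc7a5 and Cldn5 at -0.20 each. Of 15 other capillary-leaning genes 13 lay below 0 and none was called, with a median of -0.17. Slc2a1 was level, at 674 and 685 CPM, and Cxcl12, a chemokine of vessel walls, at 1882 and 1831 CPM. Spock2 was at 2829 and 2170 CPM and Hmcn1, a matrix protein, at 3965 and 3098 CPM, below the threshold though their intervals leave out 1.

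Of 23 measured carriers 18 lay below 0, with a median of -0.24. Over all measured genes the median was 0.02 and 6.74% were called. Several carriers, among them Tfrc, Mfsd2a, Slc16a1, Slc7a5, Slc7a1, Slco1c1 and Slc39a10, were already counted in the capillary lists above. Slc39a8, a zinc and manganese importer, fell, at 117 and 72.9 CPM and a log2 ratio of -0.69 (-1.17 to -0.22). Slc16a4, a monocarboxylate carrier (201 and 138 CPM), and Slc7a1, which carries cationic amino acids (1078 and 825 CPM), were not called. The taurine carrier Slc6a6 was at 1819 and 1862 CPM. Junctions, with the rule's genes Cldn5, Cdh5 and Pecam1 among them, gave none of 15 called and a median of -0.03. Tjp1 was at 2464 and 2215 CPM, Ocln at 369 and 444 CPM, and Cdh5 at 283 and 319 CPM. None of 6 ABC transporters was called (median -0.04), among them Abcg2 at 971 and 982 CPM and Abcc4 at 902 and 1163 CPM. The 14 uptake genes gave none (median -0.04), with the insulin receptor Insr at 734 and 883 CPM.

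Over all measured genes 6.74% were called between the libraries and 2.78% were called higher, and nothing is read from the counts of the signalling lists beside these shares. Tspan12, the Norrin co-receptor, was the 1 of 23 Wnt genes that rose, at 106 and 159 CPM and a log2 ratio of 0.59 (0.22 to 0.96), while Lef1 was at 2225 and 2043 CPM and Axin2, a Wnt target, at 100 and 72.9 CPM. The list's median was -0.06. Nrp2 was the 1 of 18 VEGF, angiopoietin and Notch genes that rose, by 0.67 (0.23 to 1.12), and ranged from 0.18 to 1.41 over the alternatives, with 0.18 both without the 10 and 8 cells with fenestrated genes and with the endothelial limit at 1%. None of 16 BMP and TGF-beta genes was called. Thbd, the thrombin receptor thrombomodulin, rose by 0.60 among 12 genes of flow response and tone, from 80 and 74 UMIs, and stood at 0.30 without those cells. Tspan12 stood at 0.43 without them.

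Of 14 interferon and MHC class I genes, B2m, the light chain of MHC class I, rose, at 192 and 292 CPM and a log2 ratio of 0.61, but it was 0.14 with the endothelial limit at 1% and 0.19 without the cells with fenestrated genes. The list's median was 0.00. The 13 basement membrane genes had a median of 0.17 and none was called, with Sparc at 253 and 351 CPM, Hspg2, or perlecan, at 156 and 215 CPM and Col4a2 at 339 and 428 CPM. Of 12 mitochondrially encoded genes 11 lay above 0, with a median of 0.46, and mt-Co3 (2023 and 3243 CPM) and mt-Nd3 (283 and 494 CPM) rose. The median mitochondrial share of a capillary cell moved with them, at 2.23% and 2.82%. Summed over the list, levels were 12644 and 17384 CPM in capillary cells. They were also higher in the library labelled IL34LacZ/LacZ in venous (12743 and 14750 CPM) and ribosomal-rich cells (15112 and 27054 CPM). Arterial cells (12067 and 10953 CPM) and cells with 2 or more UMIs of both zones (12961 and 11979 CPM) went the other way. The 6 measured nuclear genes of the respiratory chain had a median of -0.15 and none was called.

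**Figure D5:**
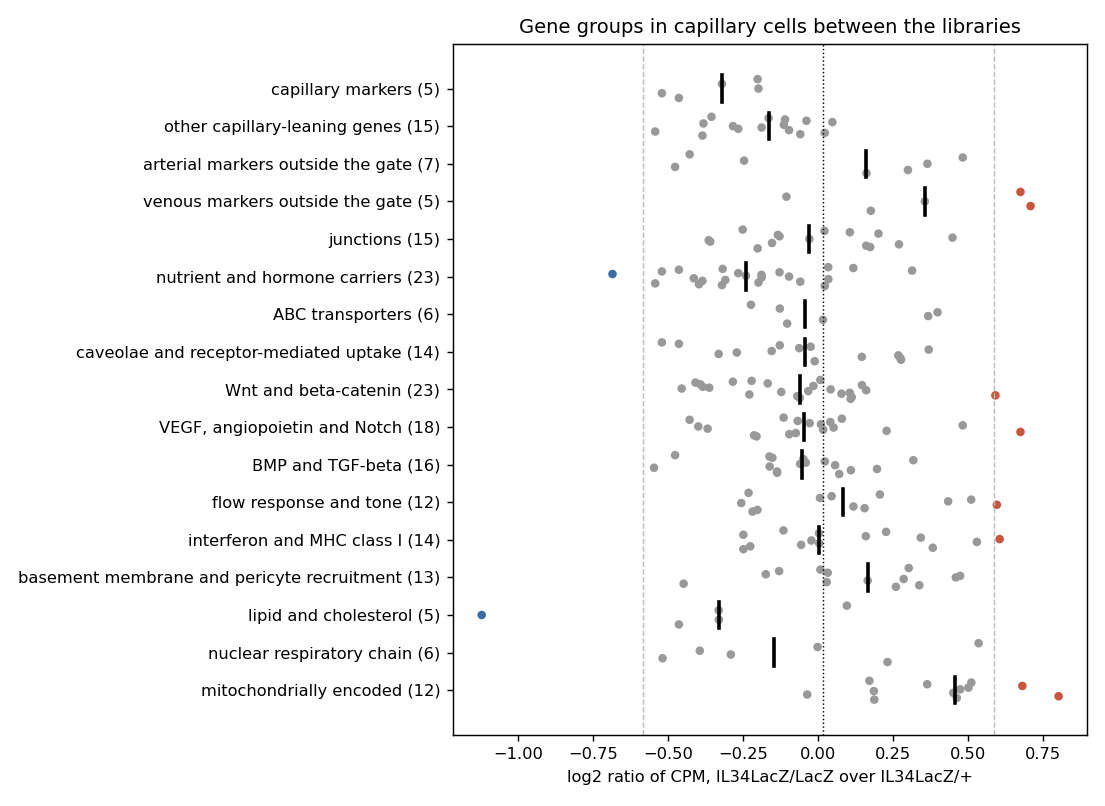
Log2 ratio of CPM, library labelled IL34LacZ/LacZ over IL34LacZ/+ (horizontal axis), for the measured members of each gene list in capillary cells (number in brackets), red for genes called higher, blue for genes called lower, grey for the rest, black bars for list medians, dashed lines at 1.5-fold and a dotted line at the median of all genes (0.02). Capillary markers and carriers lie mostly left of the dotted line (medians -0.32 and -0.24) and mitochondrially encoded genes right of it (0.46).

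Apoe and Flrt2 were called and rested on few cells. Apoe, the lipid carrier that astrocytes make, was at 526 and 242 CPM, a log2 ratio of -1.12, and 1 cell held 29.4% of its UMIs in the library labelled IL34LacZ/+. Without the 10 and 8 cells with fenestrated genes it was -0.60. The astrocyte genes Slc1a2 (188 and 45.9 CPM) and Gja1 (89.2 and 37.8 CPM) were lower too, and Apoe stood at 9839 and 8646 CPM in the astrocyte barcodes. Flrt2, an adhesion molecule of veins, was at 234 and 382 CPM, and 1 cell held 40.6% of its UMIs in the library labelled IL34LacZ/LacZ. Its ratio of 0.71 turned to -0.10 without the top 2% of cells.

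Outside the lists, Alcam had the lowest ratio among genes that pass the naming rule. This leukocyte and junction adhesion molecule was at 250 and 91.8 CPM (302 and 68 UMIs), a log2 ratio of -1.44 (-1.84 to -1.06), between -1.86 and -0.87 under every alternative. In venous cells it was at 263 and 134 CPM, in arterial cells at 104 and 80.0 CPM, and in ribosomal-rich cells at 93.2 and 194 CPM. Astrocyte barcodes held 503 and 343 CPM. Among the next lowest were Filip1l, Map1b, a microtubule protein, Bbip1, the thyroid hormone receptor Thrb, Fhit, Cebpz, Tox3 and Msra, all called, at 66.9 to 107 CPM in the library labelled IL34LacZ/+ and 31.1 to 48.6 CPM in the other. Each rested on 23 to 36 UMIs in the latter.

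Adipor2, an adiponectin receptor, was the best counted of the 10 highest, at 228 and 419 CPM (276 and 310 UMIs), a log2 ratio of 0.88 (0.64 to 1.12) that kept between 0.62 and 0.98. It was at 208 and 324 CPM in venous and 441 and 410 CPM in arterial cells. Rftn1, a raft protein, had the highest ratio, 1.05 (0.46 to 1.65), from 45 and 57 UMIs. Iigp1, an interferon-inducible GTPase, was at 51.2 and 101 CPM and the restriction factor Apobec3 at 62.0 and 122 CPM. Dync1i1, Fam13a, the chaperone Calr, Gfod2, the lipase Lipe and the annexin Anxa2 rose by 0.86 to 0.94 on the log2 scale.

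The interleukin-34 axis was nearly silent in the class. Il34 had 2 and 1 UMIs (1.65 and 1.35 CPM), so its change cannot be seen here; its level was 367 and 527 CPM in the pericyte barcodes. It was not lower in the library labelled IL34LacZ/LacZ there. Where LacZ lies in the gene is not known here, so whether these 3′ tags can tell the genotypes apart was not tested, and the genotype labels could not be checked from the counts. The receptor Csf1r had 0 and 8 UMIs, and Csf1, its other ligand, 24.0 and 18.9 CPM. Il1r1 had a log2 ratio of 1.81 (1.14 to 2.51), from 28 and 60 UMIs, short of the 100 that a measured gene needed.

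Marker lists of other cell types gave these summed levels in the class. Pericyte markers were at 76.8 and 12.2 CPM, with 1 cell holding 60.2% of the first and 0 and 5 of 9 markers at 0. Smooth muscle markers were at 21.5 and 0 CPM with 2 and 5 of 5 at 0, and fibroblast markers at 13.2 and 14.9 CPM with 2 and 3 of 8 at 0. Oligodendrocyte markers were at 360 and 308 CPM. Choroid plexus markers were at 1584 and 1221 CPM, nearly all Ttr, with 0 and 4 of 8 at 0. Microglial markers were at 484 and 427 CPM with 5 and 4 of 11 at 0. Astrocyte markers were at 3747 and 3154 CPM with 0 and 1 of 9 at 0, of which Slco1c1, also made by brain endothelium, made up 3182 and 2975 CPM; 3 of the 4 measured were lower in the library labelled IL34LacZ/LacZ. Neuronal markers were at 780 and 543 CPM, and 1 cell in each library held 49.6% and 41.5% of them. Erythrocyte markers were at 2793 and 3061 CPM. The doublet caller Scrublet marked 1 and 0 capillary cells.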

How the data were processed

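UMI counts per gene and barcode were used as deposited by the authors, and come from Cell Ranger (version 7.1.0, per the file headers). Libraries were made with the 10x 3′ kit v3.1, per the labels' protocols, and the submitters' processing notes give mm10 and GRCm38.p6 as the build. No source used here names the annotation release or a step against free RNA. The matrices hold 3901 and 5400 barcodes (26679053 and 36696941 UMIs, at least 500 each), of which 1668 and 1175 were kept. Of 25906 genes, 25461 were found in GENCODE M21.

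Counts were summed over the cells of a class and divided by the class total (CPM). Ratios have exact conditional 95% intervals, checked on simulated counts. A gene was measured with at least 100 UMIs over all sums compared and at least 20 CPM in any of them, and called past 1.5-fold with an interval that leaves out 1. The 15 genes of the rule and Ttr, haemoglobin and ribosomal protein genes were not called between zones. Between the libraries they were not left out of the counts and list medians. No p-value was computed. Each result was recomputed under 13 alternatives, 2 of them added after seeing the data. Named genes were list members and the 10 highest and 10 lowest ratios per comparison, leaving out mitochondrial, ribosomal protein, haemoglobin, sex-linked, unnamed and rule genes, genes whose level in a reference class was over 10 times the capillary level and genes of which 1 cell held over 25% of UMIs. Reference classes were barcodes with at least 1% oligodendrocyte, 1% astrocyte or 0.5% pericyte marker UMIs, or 10% Ttr for choroid plexus. Scrublet (scanpy 1.11.5) marked 3 (0.180%) and 7 (0.596%) kept barcodes, which is few, and none was removed, so missed doublets remain. Some items are not reported here. The class, its lists and the markers were chosen with earlier results of these data known. Python 3.11.15, numpy 2.4.6, scipy 1.17.1 and pandas 2.3.3 were used.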

Additional observations from a re-analysis of the deposited data

Results flagged for a closer look

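Cp, which oxidises iron for export, moved in opposite directions in capillary and ribosomal-rich endothelial cells. Its log2 ratio, library labelled IL34LacZ/LacZ over IL34LacZ/+, was -0.79 in capillary cells (201 and 116 CPM) and 0.74 in the ribosomal-rich cells (285 and 476 CPM), which the rule leaves out. The difference was not tested, as each genotype is 1 library. In arterial cells the ratio was -1.66.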

How the results depend on the processing

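With 5000 UMIs required, 82 and 55 cells remained; with both zone sums at 0, 175 and 115, and 66 and 71 genes were called higher and lower between the libraries. Thinning to 1000 UMIs left 11 and 28 calls between libraries, 5 and 6 against arterial and 1 and 2 against venous cells, since fewer UMIs leave fewer genes measured. A filter of 30 UMIs gave 319 and 403 between libraries and 71 lower than venous. Leaving out cells with markers of other classes left 182 cells in the library labelled IL34LacZ/+, 63 lower calls between libraries, 28 and 28 against arterial cells and 14 higher than venous; 24 of the 74 higher and 20 of the 63 lower genes were among the main calls. With a shorter list of those markers, 77 were lower. Leaving out the top 2% of cells per gene gave 64 and 74 between libraries, 39 lower than arterial and 12 higher than venous. Genes higher than venous numbered 18 with the endothelial limit at 1% and 16 without the cells with fenestrated genes. The cause of these shifts, other than fewer cells or UMIs, was not tested. The last setting and the shorter list were chosen after seeing the data.

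Flrt2 turned to -0.025 without cells with markers of other classes, -0.080 when thinned and -0.10 without the top 2% of cells; thinning also turned Msra to 0.14 and Tspan12 to -0.15. Of the other single-gene values 2602 stayed inside the 95% interval of the main value and 201 left it. No paired analysis was possible because each genotype is 1 library.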
